A study of Homo sapiens with 4 samples.

Results

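The cytosolic ribosomal protein genes were taken from a table of gene levels by their symbols alone, as RPL or RPS followed by a number and at most 1 of the letters A, X and L, with RPSA and the stalk genes RPLP0, RPLP1 and RPLP2. The rule picked 81 of 32973 listed genes and left out pseudogenes. Of the 81, 77 encode standard proteins of the cytosolic ribosome and 4 are paralogs or related genes (RPS27L, RPL39L, RPL3L and RPS10L). FAU, which encodes a ribosomal protein as a fusion with a ubiquitin-like protein, carries another name and is described among the related genes.

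Total RNA of T24T and UMUC3 cells, both human bladder cancer lines, was sequenced to look for genes that act downstream of the circular RNA BCUC-1 (hsa_circ_0001361, from the FNDC3B gene). The 4 groups held 1 library each, namely T24T with a BCUC-1 overexpression plasmid (T24T BCUC-1), T24T with the vector (T24T vector), UMUC3 with the same plasmid (UMUC3 BCUC-1) and UMUC3 with the vector (UMUC3 vector). Both plasmids were stably transfected, and both lines grew in RPMI-1640 medium with serum. With 1 library per group, a difference within a line compares those libraries and not the conditions, and the labels do not say whether a group was 1 clone or a pool of transfected cells. Line differences rest on 2 libraries per line, 1 with BCUC-1 and 1 with vector, and the labels name no separate cultures. The spread behind the p-values is how far the line difference varied between the BCUC-1 pair and the vector pair, evened out in part over genes. It is not a spread between repeat cultures of a line, and it may be technical.

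The ribosome is built from a small subunit, which reads the messenger RNA, and a large subunit, which joins the amino acids. Its proteins are made in near equal numbers, and their messenger RNAs are among the most abundant in growing cells. In vertebrates most of these messenger RNAs begin with a short run of pyrimidines, the 5' terminal oligopyrimidine (TOP) motif, through which mTOR signalling and the protein LARP1 set how strongly they are translated. When ribosome assembly is disturbed, RPL5 and RPL11, bound to the 5S RNA, bind and inhibit the ubiquitin ligase MDM2.

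The start regions of the genes with the largest line differences in each direction are shown because their pyrimidine run is the feature that ties the family together. The sequences are from RefSeq (GRCh38.p14). Each holds 40 bases before and 20 bases from the annotated start, 5' to 3' on the gene's strand, with the longest run of C and T near the start in capitals where it reached 8 letters. The first 4 genes are the lowest and the last 4 the highest in T24T relative to UMUC3 among members with a single promoter entry.
RPS27L (chr15:63157458-63157517, minus strand): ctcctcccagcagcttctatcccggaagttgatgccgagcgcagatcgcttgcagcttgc
RPL4 (chr15:66504836-66504895, minus strand): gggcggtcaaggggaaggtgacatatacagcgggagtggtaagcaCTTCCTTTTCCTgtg
RPS3 (chr11:75399478-75399537, plus strand): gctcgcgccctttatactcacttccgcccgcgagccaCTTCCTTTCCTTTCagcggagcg
RPS6 (chr9:19380217-19380276, minus strand): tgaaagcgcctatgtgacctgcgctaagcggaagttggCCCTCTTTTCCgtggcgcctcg
RPL31 (chr2:101002249-101002308, plus strand): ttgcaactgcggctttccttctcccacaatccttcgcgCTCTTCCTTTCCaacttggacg
RPL37A (chr2:216498804-216498863, plus strand): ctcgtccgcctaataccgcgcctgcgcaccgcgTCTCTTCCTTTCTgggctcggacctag
RPL36A (chrX:101390971-101391030, plus strand): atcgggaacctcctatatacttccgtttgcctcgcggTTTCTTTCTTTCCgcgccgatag
RPL39 (chrX:119791611-119791670, minus strand): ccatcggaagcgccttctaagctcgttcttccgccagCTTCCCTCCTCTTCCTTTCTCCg

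The run was present in 7 of these 8 sequences, on both sides of the line difference, and ranged from 11 letters in RPS6 to 22 letters in RPL39. RPS27L, the paralog, had no run longer than 3 letters in the window. Entries on chromosome 8 were not used, for members or for other genes. Of the 81 members, 63 had a promoter entry that was used, and 53 of those (84.1%) held a run of at least 8 C or T letters on the sense strand between 10 bases before and 20 bases after the start, against 15.4% of the 27305 genes with such an entry. The longest run had a median of 11 letters in the members and 5 letters in all genes. Over the 300 bases from 250 before to 50 after the start and on both strands, the ETS-type motif CCGGAAG was found in 36.5% of the members and 12.2% of all genes, and the YY1-type motif AAGATGGC in 9.52% and 3.52%. The TATA box letters TATAAA occurred in 7.94% of the members, against 14.0% of all genes, and the E-box CACGTG in 6.35%, against 8.77%. These matches describe the letters in the windows only.

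The libraries held between 22730112 and 26497894 assigned reads, and mitochondrial genes took between 3.84% and 6.33% of them. Levels are given in RPKM, reads per 1000 bases of listed gene length and per 1000000 assigned reads. Epithelial markers were present, mainly KRT8, KRT18 and KRT7, with a summed level of 263 and 246 RPKM in T24T BCUC-1 and T24T vector and 60.7 and 58.4 RPKM in UMUC3 BCUC-1 and UMUC3 vector. Of the 14 epithelial markers, between 4 and 5 reached 1 RPKM, and the uroplakins and CDH1 were at 0 or low, at most 1.03 RPKM for UPK1B and 0.007 RPKM for CDH1. The 4 mesenchymal markers, led by VIM, summed to 99.9 and 95.5 RPKM in T24T BCUC-1 and T24T vector and to 295 and 263 RPKM in UMUC3 BCUC-1 and UMUC3 vector. Leukocyte, endothelial and fibroblast markers summed to at most 0.33 RPKM per list and library.

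Ribosomal protein genes took a smaller share of the reads in T24T than in UMUC3, and the share was nearly the same with and without BCUC-1. They held 3.35% of the reads in T24T BCUC-1 (exact 95% interval 3.34% to 3.35%) and 3.30% in T24T vector (3.29% to 3.31%). In UMUC3 BCUC-1 the share was 4.67% (4.66% to 4.67%) and in UMUC3 vector 4.62% (4.61% to 4.63%). These intervals hold counting error and nothing else, and no molecular identifiers are described that would make reads independent. Both subunits followed this order, with 1.29% and 1.27% of the reads in small subunit genes of T24T BCUC-1 and T24T vector, against 1.93% and 1.90% in UMUC3 BCUC-1 and UMUC3 vector. Large subunit genes held 2.06% and 2.03% of the reads in T24T BCUC-1 and T24T vector, against 2.74% and 2.72% in UMUC3 BCUC-1 and UMUC3 vector. In bulk RNA, fewer cells of a kind and less RNA per cell cannot be told apart.

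Nearly all members were measured deeply. Between 77 and 78 of the 81 had at least 1000 reads in a library, and the median member stood at 103 and 98.3 RPKM in T24T BCUC-1 and T24T vector, against 128 and 127 RPKM in UMUC3 BCUC-1 and UMUC3 vector. RPS12, a small subunit protein, had the highest level, with 633 and 622 RPKM in T24T BCUC-1 and T24T vector and 1155 and 1112 RPKM in UMUC3 BCUC-1 and UMUC3 vector. RPL26, RPL13A, RPS2 and RPL11 followed, with means over the 4 libraries of 581, 577, 515 and 476 RPKM. Among the lowest of the 77 standard genes were RPS29 (mean 8.69 RPKM), RPL28 (12.97 RPKM), RPL34 (28.2 RPKM) and RPS15A (28.7 RPKM).

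That order leans on the listed gene lengths, which run from 531 to 9783 bases with a median of 2977 bases. The listed length was a median of 5.91 times the coding length, as it joins all listed exons of a gene. Over the 77 standard genes RPKM had a Spearman correlation of -0.41 with listed length, while reads per 1000 coding bases had 0.07. The highest level was 101 times the lowest in RPKM and 19.1 times the lowest per coding length. RPS29, with a listed length of 9783 bases and a coding length of 168 bases, was at rank 77 by RPKM and at rank 59 per coding length, and RPL41 moved to rank 1 per coding length, against rank 18 by RPKM. The ratio of a gene between libraries does not depend on its listed length. The order of the 77 genes was close to identical within a line, with Spearman correlations of 0.999 between the T24T libraries and 0.996 between the UMUC3 libraries, and 0.941 and 0.940 across lines for the BCUC-1 pair and the vector pair.

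The comparison the labels state is BCUC-1 against vector, and over both lines no member passed the test. The differences, on the log2(RPKM + 1) scale, ran between -0.13 for RPS29 and 0.13 for RPL41, with a median of 0.025 over the 79 members tested, against 0.0035 over all 15415 genes tested. Limma called 0 of 79 members at a Benjamini-Hochberg adjusted p of 0.05, where the share of all genes called was 0%, and the smallest adjusted p of a member was 0.998. At an unadjusted p of 0.05 the same fit called 0 members and 4.23% of all genes, and limma-voom on the recovered reads called 0 members after adjustment and 1 before it. The fit had 1 residual degree of freedom. The fit was also run on simulated data of this design, a single draw per term with an assumed spread between libraries. There it recovered 35% of genes changed by 1.5-fold and 88% of those changed by 2-fold. The line term of the simulation recovered 10% and 75%, so the rates are rough. They do not give the smallest shift that the fit could find in the real data. RPL3L and RPS10L were not tested, being under 1 RPKM in at least 3 libraries.

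Within T24T the members differed little between BCUC-1 and vector, with a slight lean to higher values. On the log2(RPKM + 1) scale none of the 79 members that reached 1 RPKM was at least 25% higher or 20% lower. Of all genes at that floor 6.32% were, and of genes whose pair of libraries held 1000 reads or more 0.208% were. The median difference was 0.023 and the whole range -0.089 to 0.15, and the summed reads of all members per assigned read were 1.01 times those of vector (95% interval 1.01 to 1.02). In 56 of 79 members the value was higher in T24T BCUC-1, where 43.4% of all genes were. Among members with at least 1000 reads the differences had an SD of 0.035, against 0.076 for all such genes. Members were deeper than most of those genes, as 58 of the 77 held at least 10000 reads in the pair, against 874 of all 7683. At that depth the counting interval of the read ratio lay above 1 for 31.0% of members and 31.9% of all genes. It lay below 1 for 6.90% and 13.5%.

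RPS14, a small subunit protein encoded on 5q, had 66.3 RPKM in T24T BCUC-1 and 61.7 RPKM in T24T vector, a read ratio of 1.07 (95% interval 1.04 to 1.11). RPL34 had 27.9 and 26.1 RPKM in T24T BCUC-1 and T24T vector (ratio 1.07, 1.01 to 1.13), and RPL23A had 86.8 and 81.6 RPKM (ratio 1.06, 1.02 to 1.10). These are the larger differences of abundant members in this line, and each is small. At the low end RPL3, which lies near the peptidyl transferase centre, had 109 RPKM in T24T BCUC-1 and 115 RPKM in T24T vector (ratio 0.951, 0.928 to 0.975). RPL29 had 72.5 and 74.5 RPKM (ratio 0.974, 0.927 to 1.02), and RPL30 had 37.5 and 38.5 RPKM (ratio 0.975, 0.930 to 1.02) in T24T BCUC-1 and T24T vector. The largest values in both directions belonged to the paralogs with the fewest reads, RPL39L (136 reads in BCUC-1 and 121 in vector, ratio 1.13, 0.877 to 1.45) and RPS27L (358 and 396 reads, ratio 0.907, 0.784 to 1.050), whose intervals include 1.

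Within UMUC3 the members spread more widely around the same centre. On the log2(RPKM + 1) scale, again none of 79 members that reached 1 RPKM was at least 25% higher or 20% lower. Such differences were found in 9.23% of all genes and 2.4% of genes with 1000 reads or more. The 79 include RPS10L and leave out RPL39L at 0. By reads RPS10L was lower by more than that rule, with 11 reads in UMUC3 BCUC-1 and 17 in UMUC3 vector (ratio 0.754, 95% interval 0.319 to 1.71). The median difference was 0.014 with 45 of 79 members higher in UMUC3 BCUC-1, where 57.4% of all genes were higher, and the summed reads per assigned read were 1.01 times those of vector (1.01 to 1.01). The SD of the differences of members with at least 1000 reads was 0.119, against 0.142 for all such genes, and the range was -0.32 to 0.23. The direction of the median flipped to -0.031 with scaling to equal medians, to -0.0017 with totals that left out mitochondrial and ribosomal protein genes, to -0.036 with the GC trend removed and to -0.022 with the length trend removed, so no direction is given for the set in this line.

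RPS27, a zinc finger protein of the small subunit, was at the low edge with 1291 reads in UMUC3 BCUC-1 and 1881 reads in UMUC3 vector, and its level per assigned read was close to 20% lower in BCUC-1 (95% interval of the ratio 0.745 to 0.859). RPL31 had 50.2 and 60.2 RPKM in UMUC3 BCUC-1 and UMUC3 vector (ratio 0.834, 0.808 to 0.861), and RPS29 had 9.96 and 11.9 RPKM (ratio 0.838, 0.793 to 0.885). RPL11, the 5S ribonucleoprotein member that can bind MDM2, had 453 and 531 RPKM in UMUC3 BCUC-1 and UMUC3 vector (ratio 0.852, 0.836 to 0.867). Its partner RPL5 lay on the other side, with 548 RPKM in UMUC3 BCUC-1 and 517 RPKM in UMUC3 vector (ratio 1.06, 1.04 to 1.07). RPS21 was also low, with 361 RPKM in UMUC3 BCUC-1 and 414 RPKM in UMUC3 vector (ratio 0.872, 0.847 to 0.897). At the high edge RPL41, a very short basic peptide of the large subunit, had 321 RPKM in UMUC3 BCUC-1 and 273 RPKM in UMUC3 vector (ratio 1.18, 1.14 to 1.21). RPL37A had 38.7 and 33.1 RPKM (ratio 1.17, 1.13 to 1.21), and RPL18 77.8 and 67.1 RPKM (ratio 1.16, 1.12 to 1.20) in UMUC3 BCUC-1 and UMUC3 vector.

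In UMUC3 the differences were weakly related to the GC content of the transcripts. Over the 77 standard genes the Spearman correlation of GC content with the UMUC3 difference was 0.23, and with the T24T difference it was -0.08. The 39 members with the higher GC content (47.9% to 63.7%) had a median UMUC3 difference of 0.055 with 28 higher, against -0.024 with 17 higher for the 38 members with the lower GC content (37.4% to 47.9%). In T24T the medians were 0.025 and 0.020. The part of GC content in the UMUC3 values was not tested.

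**Figure D1:**
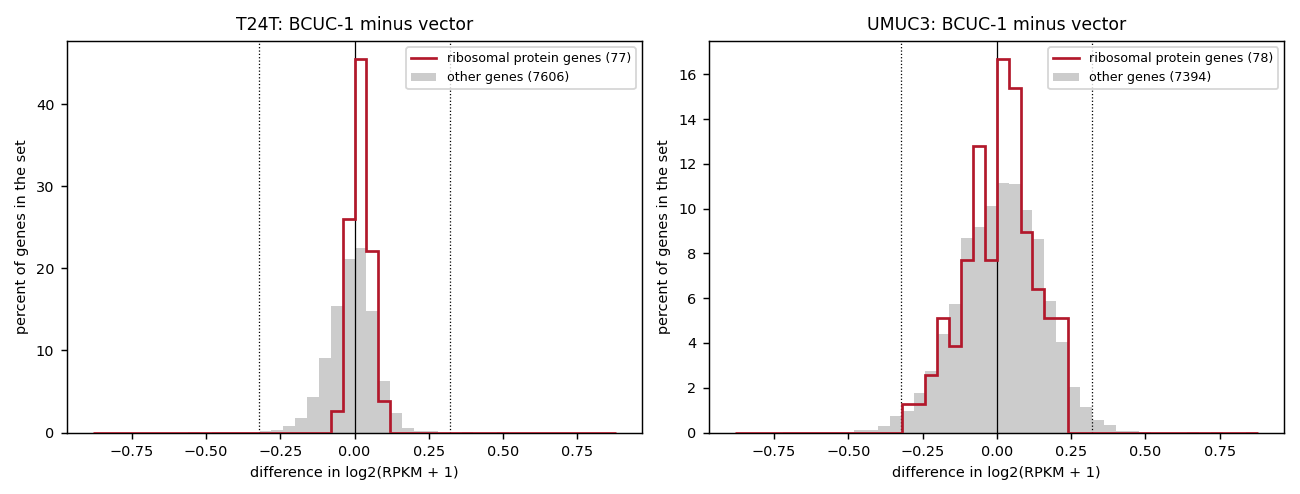
Difference in log2(RPKM + 1) between BCUC-1 and vector in T24T (left) and UMUC3 (right) on the x axis, and the percent of genes per bin on the y axis, for ribosomal protein genes (red line, 77 and 78 genes) and other genes (grey) whose pair of libraries held 1000 reads or more. Dotted lines mark 25% higher and 20% lower. The ribosomal protein genes lie in bins from -0.08 to 0.12 in T24T and from -0.32 to 0.24 in UMUC3, while other genes lie in bins from -0.56 to 0.52 in T24T and from -0.72 to 0.88 in UMUC3, and 1 other gene in UMUC3 beyond the axis is counted in the last bin.

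The counting error alone was small for such abundant genes, so many ratios differed from 1 without being large. The number of ratios whose 95% counting interval excludes 1 grows with depth, so it is given for genes with at least 10000 reads in a line's pair of libraries. In T24T the interval of the read ratio lay above 1 for 18 of 58 such members (31.0%), against 31.9% of all such genes, and below 1 for 4 (6.90%), against 13.5%. In UMUC3 it lay above 1 for 29 of 63 such members (46.0%), against 41.3% of all such genes, and below 1 for 19 (30.2%), against 33.7%. It lay above 1 in both lines for 10 of the 58 members with that depth in each line (17.2%), against 18.1% of all such genes, below 1 in both for 2 (3.45%), against 5.99%, and on opposite sides for 5 (8.62%), against 12.7%. None of these shares of the members was far above that of all such genes. The 10 members above 1 in both lines were RPL4, RPL5, RPL7, RPL10, RPL23A, RPL32, RPLP1, RPLP2, RPS2 and RPS23. Their ratios ran from 1.02 to 1.06 in T24T and from 1.01 to 1.08 in UMUC3. Among those below 1 in both lines was RPL26 (0.983 in T24T and 0.965 in UMUC3). Some of these signs depended on the setting. With scaling to equal medians RPL4 (-0.026), RPLP1 (-0.011) and RPS23 (-0.0054) turned negative in UMUC3 and RPL26 turned positive in T24T (0.021), RPL4 was also negative with the length trend removed (-0.016), and RPL10 (-0.011), RPLP2 (-0.066) and RPS2 (-0.035) turned negative in UMUC3 with the GC trend removed. The sign was the same in both lines for 44 of 79 members (55.7%), where it was the same for 48.4% of all genes tested. The difference between the lines in this response could not be tested, since a line by treatment term leaves no residual degree of freedom.

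**Figure D2:**
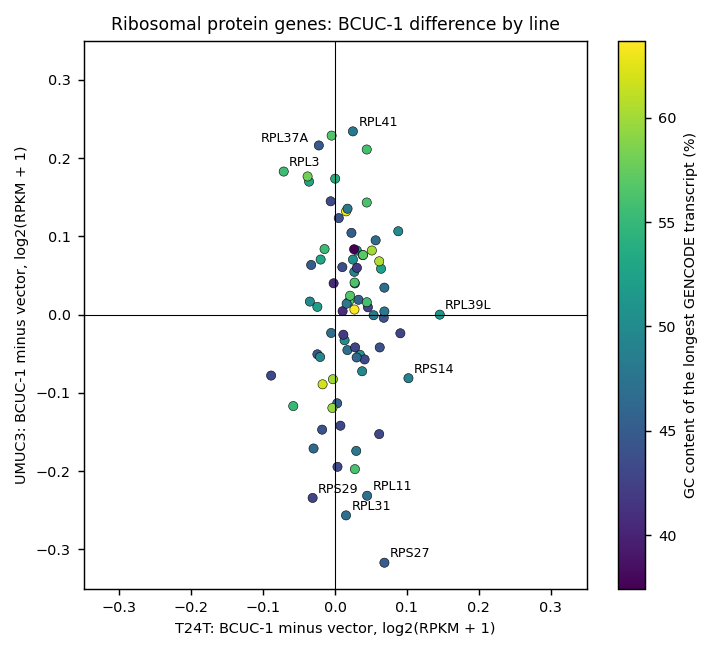
Each point is 1 of 79 ribosomal protein genes, with its BCUC-1 minus vector difference in log2(RPKM + 1) in T24T on the x axis and in UMUC3 on the y axis, coloured by the GC content of its longest transcript. The points form a column that is narrow in T24T (-0.089 to 0.15) and tall in UMUC3 (-0.32 to 0.23), with RPL39L at 0 in UMUC3 because it had no reads there, RPS27, RPL31, RPS29 and RPL11 at the bottom and RPL41 and RPL37A at the top.

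The cell lines themselves differed far more than the treatments. Of the 79 members tested, 48 fell and 8 rose in T24T relative to UMUC3 by limma at a Benjamini-Hochberg adjusted p of 0.05, where 29.6% of all genes fell and 40.8% rose. RPL39L, 1 of the 8, passed the floor of 1 RPKM only through the T24T libraries, so the filter fixed its direction. In the simulation described below the fit made more false calls than an adjusted p of 0.05 stands for. The median difference of the members was -0.28, with quartiles at -0.66 and 0.0030, while the median of all genes was 0.10. Small subunit genes fell in 23 of 32 cases and rose in 1 (median -0.38), and large subunit genes fell in 25 of 47 and rose in 7 (median -0.23). Both T24T libraries were below both UMUC3 libraries for 55 of the 81 members (67.9%), where this held for 36.6% of all genes tested, and above them for 16 (19.8%), where it held for 49.2% of all genes. The other 10 overlapped. The sign was the same in the BCUC-1 pair and in the vector pair for 70 of 79 members (88.6%), where this held for 89.4% of all genes tested, with medians of -0.34 in the BCUC-1 pair and -0.27 in the vector pair. Scaling to equal medians moved the median of all genes to -0.015, a shift of more than 0.1, and that of the members to -0.43. The epithelial and mesenchymal marker sums given above also moved with the line, and their part in the line difference was not tested. With mitochondrial and ribosomal protein genes left out of the totals the median was -0.34.

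**Figure D3:**
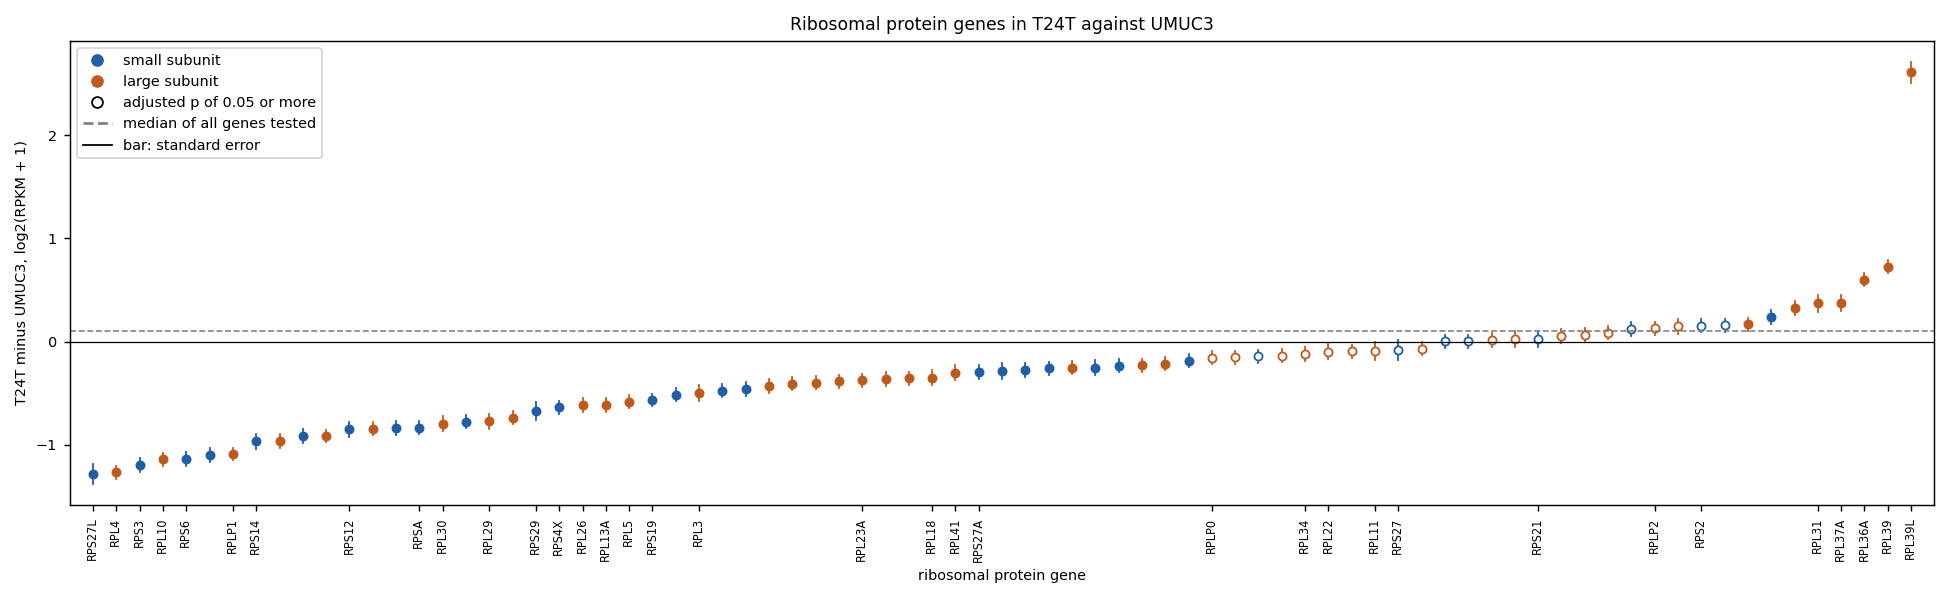
T24T minus UMUC3 difference in log2(RPKM + 1) on the y axis for each of the 79 ribosomal protein genes tested, sorted along the x axis where a selection is labelled, with bars for the limma standard error (2 libraries per line, 1 BCUC-1 and 1 vector, which are not repeats). Filled points passed an adjusted p of 0.05, and most of them lie below 0, from RPS27L at -1.29 and RPL4 at -1.27 upward, while RPL39, at 0.73, and RPL39L, at 2.61 (a fitted value that depends on the added 1 RPKM, since it had 0 reads in UMUC3), stand at the upper end. RPL39L passed the floor only through T24T, so the filter fixed its direction.

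The deepest falls reached more than 2-fold and included proteins of both subunits. RPL4 (chr15:66498015-66524532, minus strand), which lines the exit tunnel of the large subunit, had 234 and 228 RPKM in T24T BCUC-1 and T24T vector, against 562 and 555 RPKM in UMUC3 BCUC-1 and UMUC3 vector. The groups were far apart, at -1.27 ± 0.06 (SE) on the log2(RPKM + 1) scale, or 2.41-fold lower in T24T (limma, Benjamini-Hochberg adjusted p = 9.09e-06). RPS3 (chr11:75399486-75422280, plus strand), which sits at the entry of the messenger RNA channel and also acts in DNA repair, had 168 and 166 RPKM in T24T BCUC-1 and T24T vector and 399 and 371 RPKM in UMUC3 BCUC-1 and UMUC3 vector. It was 2.30-fold lower in T24T (-1.20 ± 0.06, limma, Benjamini-Hochberg adjusted p = 1.18e-05). RPS6 (chr9:19375715-19380254, minus strand), the substrate of S6 kinase downstream of mTOR, had 240 and 233 RPKM in T24T BCUC-1 and T24T vector, against 524 and 520 RPKM in UMUC3 BCUC-1 and UMUC3 vector, and was 2.20-fold lower. RPL10, which helps to form the binding site of transfer RNA and joins the subunit late, had 103 and 98.3 RPKM in T24T BCUC-1 and T24T vector and 228 and 219 RPKM in UMUC3 BCUC-1 and UMUC3 vector, 2.21-fold lower in T24T. In all, 7 of 79 members (8.86%) were at least 2-fold lower with a call, where 7.73% of all genes tested were, and 23 (29.1%) were at least 1.5-fold lower, where 15.8% of all genes tested were.

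Other members with set roles fell less or did not pass the test. RPSA, which is also the laminin receptor, had 117 and 111 RPKM in T24T BCUC-1 and T24T vector, against 204 and 204 RPKM in UMUC3 BCUC-1 and UMUC3 vector (difference -0.83). RPS4X had 191 and 183 RPKM in T24T BCUC-1 and T24T vector and 288 and 296 RPKM in UMUC3 BCUC-1 and UMUC3 vector (-0.64), and RPS19, the gene most often mutated in Diamond-Blackfan anaemia, had 51.9 and 51.2 RPKM, against 77.4 and 76.5 RPKM (-0.57). RPL3 fell by 0.50 and RPS27A, made as a fusion with ubiquitin, fell by 0.29. All of these passed the test. RPS27 did not, with 64.9 and 61.8 RPKM in T24T BCUC-1 and T24T vector and 60.04 and 75.04 RPKM in UMUC3 BCUC-1 and UMUC3 vector, so the lines overlapped. RPS2, one of the most abundant members, had 550 and 536 RPKM in T24T BCUC-1 and T24T vector, against 501 and 475 RPKM in UMUC3 BCUC-1 and UMUC3 vector, a difference of 0.15 that did not pass either.

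The members of 1 structure did not move as a block. In the stalk that recruits translation factors, RPLP1 had 100 and 95.5 RPKM in T24T BCUC-1 and T24T vector, against 212 and 207 RPKM in UMUC3 BCUC-1 and UMUC3 vector, and was 2.13-fold lower in T24T (limma, Benjamini-Hochberg adjusted p = 1.41e-05). Its dimer partner RPLP2 had 251 and 240 RPKM in T24T BCUC-1 and T24T vector and 230 and 219 RPKM in UMUC3 BCUC-1 and UMUC3 vector, a difference of 0.13 that did not pass (adjusted p = 0.106 by limma with Benjamini-Hochberg adjustment) and that turned to -0.018 with scaling to equal medians. RPLP0, the base of the stalk, had 191 and 188 RPKM in T24T BCUC-1 and T24T vector, against 216 and 206 RPKM in UMUC3 BCUC-1 and UMUC3 vector (-0.16, adjusted p = 0.0597 by limma with Benjamini-Hochberg adjustment). In the 5S ribonucleoprotein, RPL5 had 358 and 352 RPKM in T24T BCUC-1 and T24T vector and 548 and 517 RPKM in UMUC3 BCUC-1 and UMUC3 vector, and it fell by 0.58 in T24T with a call. RPL11 had 468 and 454 RPKM in T24T BCUC-1 and T24T vector, against 453 and 531 RPKM in UMUC3 BCUC-1 and UMUC3 vector, so the T24T libraries lay between the UMUC3 libraries and the difference of -0.09 did not pass. The differences between such partners were not themselves tested.

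**Figure D4:**
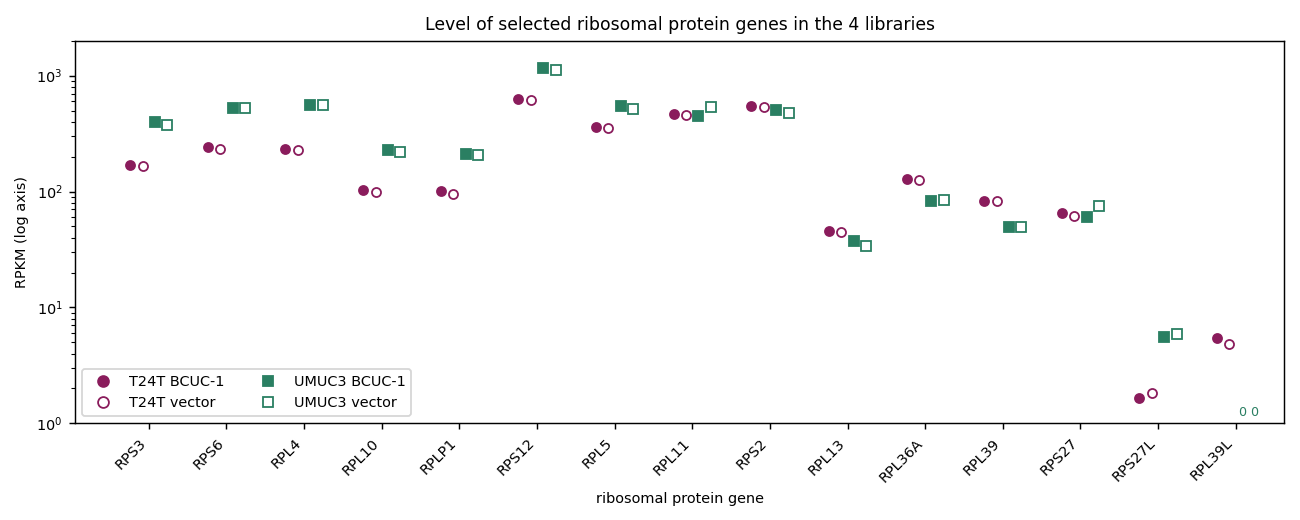
RPKM on a log axis for 15 ribosomal protein genes (x axis) in the 4 libraries, with circles for T24T and squares for UMUC3, filled for BCUC-1 and open for vector. From RPS3 to RPL5 the circles lie below the squares, from RPL13 to RPL39 above them, and the UMUC3 libraries are at 0 for RPL39L.

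Only 8 members rose in T24T, all but RPS15A in the large subunit, and 5 of them by more than 0.3 on the log2 scale besides RPL39L. The direction of RPL39L was fixed by the filter, since it reached 1 RPKM only in the T24T libraries. RPL39 (chrX:119786504-119791643, minus strand), a small protein of the exit tunnel, had 82.1 and 82.4 RPKM in T24T BCUC-1 and T24T vector, against 48.9 and 49.7 RPKM in UMUC3 BCUC-1 and UMUC3 vector. It was 1.65-fold higher in T24T (0.73 ± 0.06 SE, limma, Benjamini-Hochberg adjusted p = 8.09e-05). Reads counted for its 7 pseudogenes equalled 13.9% and 14.2% of its own in T24T BCUC-1 and T24T vector, against 29.5% and 43.8% in UMUC3 BCUC-1 and UMUC3 vector, and their part in the difference was not tested. RPL36A (chrX:101390824-101396154, plus strand), which lies near the exit site of transfer RNA, had 127 and 126 RPKM in T24T BCUC-1 and T24T vector and 82.5 and 84.0 RPKM in UMUC3 BCUC-1 and UMUC3 vector, 1.52-fold higher. The read-through gene RPL36A-HNRNPH2 shares 8.40% of the listed RPL36A bases and had the same direction (0.72), so reads of the pair cannot be fully told apart. RPL37A, RPL31 and RPL13 rose by 0.38, 0.37 and 0.32, and RPS15A and RPL10A by 0.23 and 0.17. With scaling to equal medians 4 members had an upward call, and with quantile normalization 14 had one.

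Paralogs stood at both ends of the order of the 79 line differences. RPL39L (chr3:187120948-187180908, minus strand), a paralog of RPL39 with high levels in testis, had 136 reads (5.44 RPKM) in T24T BCUC-1 and 121 reads (4.82 RPKM) in T24T vector and 0 reads in both UMUC3 libraries. Counting a library at 0 as at most 3 reads, it was at least 43.7-fold higher in T24T in the BCUC-1 pair and at least 45.1-fold higher in the vector pair. These bounds take the T24T reads as counted, and the exact 95% lower limits, which include their counting error, were 35.05-fold in the BCUC-1 pair and 36.15-fold in the vector pair. Its parent RPL39 was also higher in T24T, and at 48.9 to 82.4 RPKM it stood well above RPL39L in every library on this per-length scale. RPS27L (chr15:63125872-63158021, minus strand), a paralog of RPS27, went the other way, with 1.66 and 1.83 RPKM in T24T BCUC-1 and T24T vector, against 5.51 and 5.88 RPKM in UMUC3 BCUC-1 and UMUC3 vector. On the log2(RPKM + 1) scale RPS27L was 2.44-fold lower in T24T (-1.29 ± 0.10 SE, limma, Benjamini-Hochberg adjusted p = 4.68e-05), while RPS27 did not pass. The added 1 RPKM makes that fold too small for so low a gene. Its T24T over UMUC3 read ratio was 0.302 in the BCUC-1 pair (95% interval 0.267 to 0.340) and 0.312 in the vector pair (0.278 to 0.349). RPL3L, the muscle paralog of RPL3, had at most 2 reads in a library, and RPS10L between 11 and 17 reads.

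The line difference was not the same on every chromosome. Of the 4 members on chromosome 15, RPS27L, RPL4 and RPLP1 were at -1.29, -1.27 and -1.09, while all genes tested on that chromosome had a median of 0.13. The 8 members on chromosome 3 had a median of -0.59, against -0.19 for all its genes, and the 12 members on chromosome 19 had -0.36, against 0.17. The 4 members on chromosome X were split, with RPL39 and RPL36A higher and RPL10 and RPS4X lower in T24T. These chromosomes were picked after their values were seen.

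The counted reads may be shared with other genes for some members. Of the 81, 45 share exonic bases with another listed gene, and 13 share at least 10% of their listed length, such as RPS10 with the read-through gene RPS10-NUDT3 (28.8%) and RPL17 with RPL17-C18orf32 (24.8%). The shared length does not give the shared reads. ATG10 shares only 8.90% of the RPS23 bases, but it counted 23264 reads in T24T BCUC-1, where RPS23 counted 24739. Reads counted for processed pseudogenes, intronless copies scattered over the genome, were few for most members but equalled 57.4% and 56.6% of the RPL15 reads in T24T BCUC-1 and T24T vector, and 67.2% and 65.9% in UMUC3 BCUC-1 and UMUC3 vector. For RPL23A they equalled 21.9% and 24.7% of the parent reads in T24T BCUC-1 and T24T vector, against 14.2% and 14.0% in UMUC3 BCUC-1 and UMUC3 vector. For RPL4, RPS3, RPL10, RPS6, RPS20 and RPLP1, all among the lowest in T24T, the share was below 1%, with 0.67%, 0.58%, 0.91% and 0.70% for RPL4 in T24T BCUC-1, T24T vector, UMUC3 BCUC-1 and UMUC3 vector.

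Related gene lists differed in how they stood between the lines, and the differences between lists were not tested. The shares of all genes tested, as above, were 29.6% lower and 40.8% higher. A list of 17 other genes with TOP messenger RNAs held mostly translation factors, but also genes such as TPT1, NAP1L1, HNRNPA1, NACA and BTF3. Of these 17, 14 fell and 1 rose in T24T relative to UMUC3 by limma (median -0.52). PABPC1, the poly(A) binding protein, had 329 and 316 RPKM in T24T BCUC-1 and T24T vector, against 611 and 598 RPKM in UMUC3 BCUC-1 and UMUC3 vector (-0.90), and EIF4B and EIF3E fell by 0.89 and 0.73. EEF1B2, an exchange factor of elongation, rose, with 363 and 350 RPKM in T24T BCUC-1 and T24T vector, against 228 and 226 RPKM in UMUC3 BCUC-1 and UMUC3 vector (0.65), and EEF1A1, the most abundant of the list, differed by -0.14 and did not pass. Of 9 ribosomal protein genes with other names, 4 fell and 1 rose, among them RPL22L1 (-1.04) and FAU (-0.42). Ribosome biogenesis genes had no common direction, with 14 of 33 lower (42.4%) and 13 higher (39.4%, median 0.054), from NOB1 at -0.88 to RRN3 at 0.97, and the abundant nucleolar protein NCL rose by 0.84. Mitochondrial ribosomal proteins, which are coded in the nucleus for the separate ribosome of that organelle, rose in 38 of 78 cases (48.7%) and fell in 26 (33.3%, median 0.17), led by MRPS9 at 1.46 and MRPL30 at 1.42. Of 500 listed pseudogenes 80 were tested, of which 48 fell and 9 rose (median -0.46). A pseudogene that reached 1 RPKM in UMUC3 alone was tested only because it was lower in T24T, so the filter fixed its direction. RPS3AP5 was such a case, with 0.258 and 0.463 RPKM in T24T BCUC-1 and T24T vector and 2.68 and 2.21 RPKM in UMUC3 BCUC-1 and UMUC3 vector. The part of the filter in these counts was not tested.

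**Figure D5:**
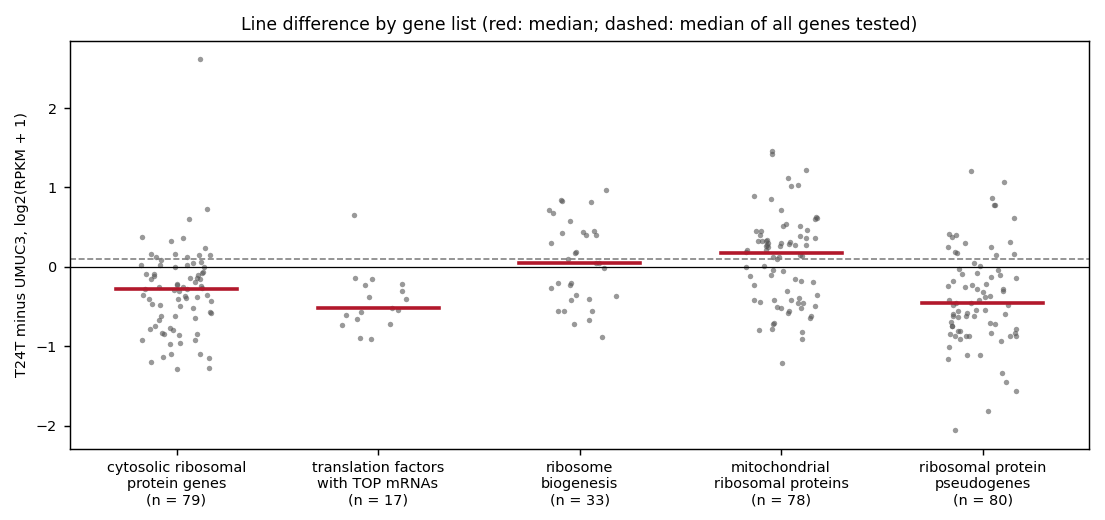
T24T minus UMUC3 difference in log2(RPKM + 1) on the y axis for every tested gene of 5 gene lists (x axis), with the list median as a red bar and the median of all genes tested as a dashed line. Ribosomal protein genes, the TOP list (labelled translation factors, though it also holds other genes) and ribosomal protein pseudogenes have medians below 0 (-0.28, -0.52 and -0.46). Some pseudogenes passed the floor of 1 RPKM in UMUC3 alone, which fixed their direction. Ribosome biogenesis and mitochondrial ribosomal protein genes have medians above 0 (0.054 and 0.17).

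Genes that control ribosomal protein synthesis differed between the lines in both directions, with 9 of 18 lower and 7 higher in T24T (median -0.18). MDM2 rose, with 17.4 and 18.1 RPKM in T24T BCUC-1 and T24T vector, against 6.44 and 7.33 RPKM in UMUC3 BCUC-1 and UMUC3 vector, and the kinase genes RPS6KA1 and RPS6KB1 rose by 1.56 and 1.13. MYC, which drives ribosome production, had 16.1 and 15.8 RPKM in T24T BCUC-1 and T24T vector and 25.7 and 25.4 RPKM in UMUC3 BCUC-1 and UMUC3 vector (-0.64). For BCUC-1 against vector over both lines limma called 0 genes of any of these lists at an adjusted p of 0.05. In T24T 32 of the 33 ribosome biogenesis genes were higher in BCUC-1 than in vector (median 0.057), where 43.4% of all genes were higher, and in UMUC3 14 were (median -0.020), where 57.4% were. On the log2(RPKM + 1) scale none of these biogenesis genes reached 25% higher or 20% lower in either line.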

How the data were processed

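Total RNA was sequenced with standard Illumina library preparation, per the labels. The deposited table gives RPKM per gene and library, which the authors scaled by listed gene length and assigned reads, and, per the file headers, a Length column in bases (other). Per the submitters' processing notes, Bowtie 0.12.2 was used. For its role, the genome build, the annotation, strand use and reads with several matches, details were not given in the sources used here. Per the values of the deposited table, RPKM times Length gave whole reads for 100% of genes within 0.001 reads, so reads and depths (22730112 to 26497894) were recovered. Columns of samples outside the design numbered 0.

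Members were found by symbol, and the members and gene lists were chosen with earlier results of these data known. Genes with at least 1 RPKM in 2 libraries (15415) were tested two-sided on log2(RPKM + 1) with limma (version 3.58.1, R version 4.3.3), using its trend option and terms for line and treatment. Benjamini-Hochberg adjustment ran over all genes tested, and 1 residual degree of freedom was left (prior degrees of freedom 5.55). A fold change on this scale understates the change of low genes. Within a line no test was made, and read ratios carry exact (Clopper-Pearson) 95% intervals. Summaries used Python 3.11.15, pandas 2.3.3 and scipy 1.17.1.

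Of the 81 members, 80 matched 1 gene of GENCODE 29 (GRCh38), and 74 had its start or end position. Coordinates are therefore given as the deposited table lists them, on GRCh38. GC content is that of the longest GENCODE 29 transcript. GC trends were removed as the median difference in 20 bins, over the 68.9% of listed genes with a GC value. Named members were the 5 highest and 5 lowest of each comparison and of the mean level, and a set chosen by role, of which some are not reported here. Other genes were named for the size of their difference.

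The fit was tested on simulated counts at the depths of the 4 libraries (15415 genes, 100 changed per fold). The spread between libraries was assumed, and no other gene differed. It recovered 75% of genes with a 2-fold line difference and 10% with a 1.5-fold one. In the real data 40.8% of genes were called higher and 29.6% lower in T24T, so these line rates need not hold there. At an adjusted p of 0.05 the BCUC-1 term gave 51 false calls and the line term 24. Beside the genes recovered, both counts are larger than that threshold stands for. The line calls in the real data may hold a similar excess, which was not tested. Alternatives were pseudocount 0.1, no filter, a floor of 5 RPKM, limma-voom on recovered reads, quantile normalization, scaling to equal medians, totals without mitochondrial and ribosomal protein genes, removal of the GC or length trend, and leaving out terms or libraries. Coding-length levels, the rules of 1000 and 10000 reads and leaving out each library for the line median were added after the data were seen.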

Additional observations from a re-analysis of the deposited data

Results flagged for a closer look

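For 5 of the 58 members with at least 10000 reads in each line's pair of libraries (8.62%) the BCUC-1 over vector read ratio lay on opposite sides of 1 in the lines, with both 95% counting intervals excluding 1, where this held for 12.7% of all such genes. The ratio of RPS14 was 1.07 in T24T and 0.945 in UMUC3. That of RPS4X was 1.04 in T24T and 0.971 in UMUC3. RPL11 had 1.03 in T24T and 0.852 in UMUC3, and RPL24 had 1.04 in T24T and 0.899 in UMUC3. RPL3 had the opposite order, with 0.951 in T24T and 1.14 in UMUC3. The difference between the lines was not tested, because each group held 1 library and the intervals cover counting error only.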

How the results depend on the processing

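The count of members called lower in T24T ranged from 38 to 54 around 48 over the alternatives. The 8 called higher became 4 without a filter, 14 with quantile normalization and 4 with scaling to equal medians. The line median of -0.28 was -0.20, -0.43 and -0.34 with quantile normalization, equal medians and totals without mitochondrial and ribosomal protein genes, -0.34 in the BCUC-1 libraries alone, and -0.34 to -0.27 when a library was left out. The calls have no residual degree of freedom without a library and were not recounted. The T24T median of 0.023 was 0.068 with equal medians and 0.032 and 0.035 with the GC or length trend removed. The UMUC3 median of 0.014 was 0.0099 without a filter, -0.031 with equal medians, -0.0017 with the reduced totals and -0.036 and -0.022 with the GC or length trend removed. In UMUC3 1 member passed 25% higher or 20% lower under 4 settings (a pseudocount of 0.1, equal medians, the reduced totals and the length trend removed). Line differences changed sign for RPL11 (0.19) and RPLP0 (0.049) with quantile normalization, for RPLP2 (-0.018) with equal medians, and for RPS21 (-0.12 and -0.025) with equal medians and the reduced totals. None of these 4 had passed the test. With mitochondrial genes left out of the total the shares were 3.48%, 3.43%, 4.93% and 4.93% for T24T BCUC-1, T24T vector, UMUC3 BCUC-1 and UMUC3 vector, and with pseudogenes counted in they were 3.47%, 3.42%, 4.82% and 4.77%. The causes were not tested. For BCUC-1 over both lines, 0 members were called under every alternative run, limma-voom (13 genes called in all) and a floor of 5 RPKM (60 genes) included. The cell line term of the fit already pairs BCUC-1 with vector within each line. No further pairing was possible because the labels carry no replicate numbers.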
